A study of Sus scrofa with 19 samples.

Results

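SAA3, CHI3L1, SERPINA3-2 and ITIH4 are 4 acute phase genes whose RNA was measured in the uterine lining (endometrium) of young female pigs, or gilts. They were chosen by measured values of the same arrays: earlier results had shown them to lie higher in the horns of gilts given prostaglandin E2 (PGE2) and estradiol (E2) than in control gilts. Their probes were found by the RefSeq accession attached to each probe, which gave 11 of 43603 probes on the array: 5 for SAA3, 2 for CHI3L1, 1 for SERPINA3-2 and 3 for ITIH4. They are 4 of the 3123 genes that could be named, and all 11 probes passed the filter on dim signals.

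All animals were crossbred gilts aged 8 months. Both uterine horns were cannulated on day 8 or 9 of the oestrous cycle, and infusions followed at 4 h intervals over 24 h, from day 11 into day 12. The 6 hormone horns (EX_H, gilts 36, 38, 40, 41, 44 and 47) received 200 µg PGE2 with 33.3 µg E2 per infusion, and which horn of a gilt this was had been picked at random. The 5 placebo horns (EX_C, gilts 36, 38, 41, 44 and 47) were the opposite horns of the same treated gilts and received the vehicle alone, 5 mL of saline with 1% ethanol. The 8 control horns came from 4 control gilts (9, 14, 28 and 46) that received vehicle in both horns, 4 marked P (CTRL_P) and 4 marked L (CTRL_L). What P and L stand for is not given in the labels, and the mark was P for 5 of 6 hormone horns while all placebo horns were marked L. A placebo horn belongs to an animal that received hormone in its other horn, and every horn in the study underwent surgery. The placebo horn of gilt 40 was not analysed here.

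The acute phase response is the change in blood proteins that follows infection, injury or surgery. Cytokines such as interleukin 1 and interleukin 6 act through NF-kappa-B, STAT3 and C/EBP transcription factors, mainly in the liver, and several acute phase genes are also transcribed in mucosal epithelium and in leukocytes. SAA3 encodes a serum amyloid A made mostly outside the liver, which binds retinol in mice and acts on leukocytes. CHI3L1 encodes a chitinase-like lectin that binds chitin without cutting it and is made by macrophages, neutrophils and other cells. SERPINA3-2 is one of the porcine genes related to human SERPINA3 (alpha-1-antichymotrypsin), an inhibitor of neutrophil and mast cell proteases. ITIH4 encodes a heavy chain of the inter-alpha-trypsin inhibitor family, known in swine as the major acute phase protein (pig-MAP).

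Levels are given as log2 of the processed signal of a probe over the 75th percentile of its array, so a level of 0 is the brightness of that percentile. The 75th percentile was 594 to 978 signal units over the 19 arrays, 79.1% to 88.4% of the spots were well above background, and 0 were saturated. Markers of epithelium (EPCAM, KRT8 and CDH1, the 3 measured of 6 listed) were well above background on all 19 arrays, as were the 3 measured markers of stroma. Smooth muscle markers (ACTA2, DES and CNN1, the 3 measured of 5 listed) summed to 61.6 to 126 times the 75th percentile in hormone horns. Their sums were 30.5 to 60.6 in placebo horns and 29.9 to 211 in control horns. The hormone and placebo ranges nearly met, at 61.6 and 60.6, and both lay within the control range. No difference in this list was tested, nor was its part in the results. The number of arrays limits the precision throughout. Both horns of gilt 47 stood apart from the other treated gilts in markers of macrophages, T and natural killer cells and B cells, so results are also given without that animal. In neutrophil markers they did not: the hormone horn of gilt 38 had a sum of 62.1, against 68.2 in that of gilt 47. The fit across all probes called 11.7% of them different between hormone horns and control gilts and 4.49% between placebo horns and control gilts (limma, adjusted p under 0.05). For each gene the brightest probe is used unless another is named.

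SAA3 was above the control horns in all 11 treated horns. In hormone horns its level was 1.38 in gilt 36, 4.11 in gilt 38, 4.32 in gilt 40, 5.42 in gilt 41, 3.35 in gilt 44 and 8.60 in gilt 47. In the placebo horns of the same gilts it was 0.84 in gilt 36, 2.54 in gilt 38, 3.82 in gilt 41, 1.69 in gilt 44 and 8.79 in gilt 47. In control gilts 9, 14, 28 and 46 it was 0.27, -0.41, -1.57 and -1.19 in the P horns and 0.33, -1.14, -1.76 and -0.96 in the L horns. No treated horn overlapped the control horns: the lowest, the placebo horn of gilt 36, lay above the highest control, the L horn of gilt 9. Before scaling, the processed signal was 1544 to 337004 units in hormone horns, 1747 to 314741 units in placebo horns and 233 to 894 units in control horns.

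The mean SAA3 level was 4.53 ± 2.41 in hormone horns (SD, n = 6), 3.53 ± 3.14 in placebo horns (n = 5) and -0.80 ± 0.79 in control horns (n = 8). The fitted difference from control gilts was 5.34 ± 0.99 log2 units in hormone horns (difference ± SE, 40.4-fold) and 4.32 ± 1.02 in placebo horns (19.9-fold). These comparisons chose the gene, so they describe it and carry no test. All 5 SAA3 probes placed every hormone horn and every placebo horn above every control horn. Over all tested probes, 3.95% had every hormone horn above every control horn and 3.05% had every placebo horn above every control horn. Since the choice used these comparisons, nothing is read from the share.

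CHI3L1 put the hormone horns in the same order as SAA3, from gilt 47 down to gilt 36. Hormone horns had levels of -1.09 in gilt 36, 0.19 in gilt 38, 1.34 in gilt 40, 2.06 in gilt 41, 0.10 in gilt 44 and 5.08 in gilt 47. Placebo horns had -1.83 in gilt 36, 0.60 in gilt 38, 1.02 in gilt 41, -1.99 in gilt 44 and 5.54 in gilt 47. Control horns of gilts 9, 14, 28 and 46 had -3.84, -2.55, -3.07 and -1.98 in P horns and -3.24, -2.87, -3.47 and -1.88 in L horns. All 6 hormone horns and 4 of the 5 placebo horns lay above the highest control, and the placebo horn of gilt 44 lay within the control range. The difference from control gilts was 4.14 ± 0.94 log2 units in hormone horns (17.7-fold) and 3.54 ± 0.98 in placebo horns (11.6-fold).

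SERPINA3-2 was dim in most animals and bright in gilt 47. Its level in hormone horns was -3.75 in gilt 36, -2.91 in gilt 38, -2.68 in gilt 40, -3.83 in gilt 41, -4.48 in gilt 44 and 1.65 in gilt 47. In placebo horns it was -5.17 in gilt 36, -3.90 in gilt 38, -5.09 in gilt 41, -5.70 in gilt 44 and 2.26 in gilt 47. Control gilts 9, 14, 28 and 46 had -6.78, -3.80, -5.96 and -5.75 in P horns and -6.34, -5.75, -6.64 and -6.06 in L horns. The groups overlapped: 4 of 6 hormone horns and 1 of 5 placebo horns, that of gilt 47, lay above the highest control, the P horn of gilt 14. The probe was well above background on 18 of 19 arrays, the exception being 1 control horn.

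The difference of SERPINA3-2 from control gilts was 3.22 ± 1.01 log2 units in hormone horns (9.30-fold) and 2.36 ± 1.04 in placebo horns (5.15-fold). Without gilt 47 it was 2.35 in hormone horns and 1.02 in placebo horns. The same omission changed the SAA3 difference to 4.52 and 3.09, and that of CHI3L1 to 3.38 and 2.41. For these 3 genes each difference was smaller without gilt 47.

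ITIH4, the porcine major acute phase protein, lay closer to the control level than the other 3 genes. Its level in hormone horns was -1.37 in gilt 36, -0.65 in gilt 38, -0.65 in gilt 40, -0.57 in gilt 41, -0.99 in gilt 44 and -1.23 in gilt 47. In placebo horns it was -1.43 in gilt 36, -0.66 in gilt 38, -0.74 in gilt 41, -1.40 in gilt 44 and -1.48 in gilt 47. Control gilts 9, 14, 28 and 46 had -2.17, -1.33, -1.28 and -1.26 in P horns and -1.49, -2.10, -1.59 and -1.30 in L horns. Here 5 of 6 hormone horns and 2 of 5 placebo horns lay above the highest control, and gilt 47 was among the lowest treated animals. The difference from control gilts was 0.66 ± 0.23 log2 units in hormone horns (1.58-fold) and 0.45 ± 0.23 in placebo horns (1.37-fold).

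**Figure D1:**
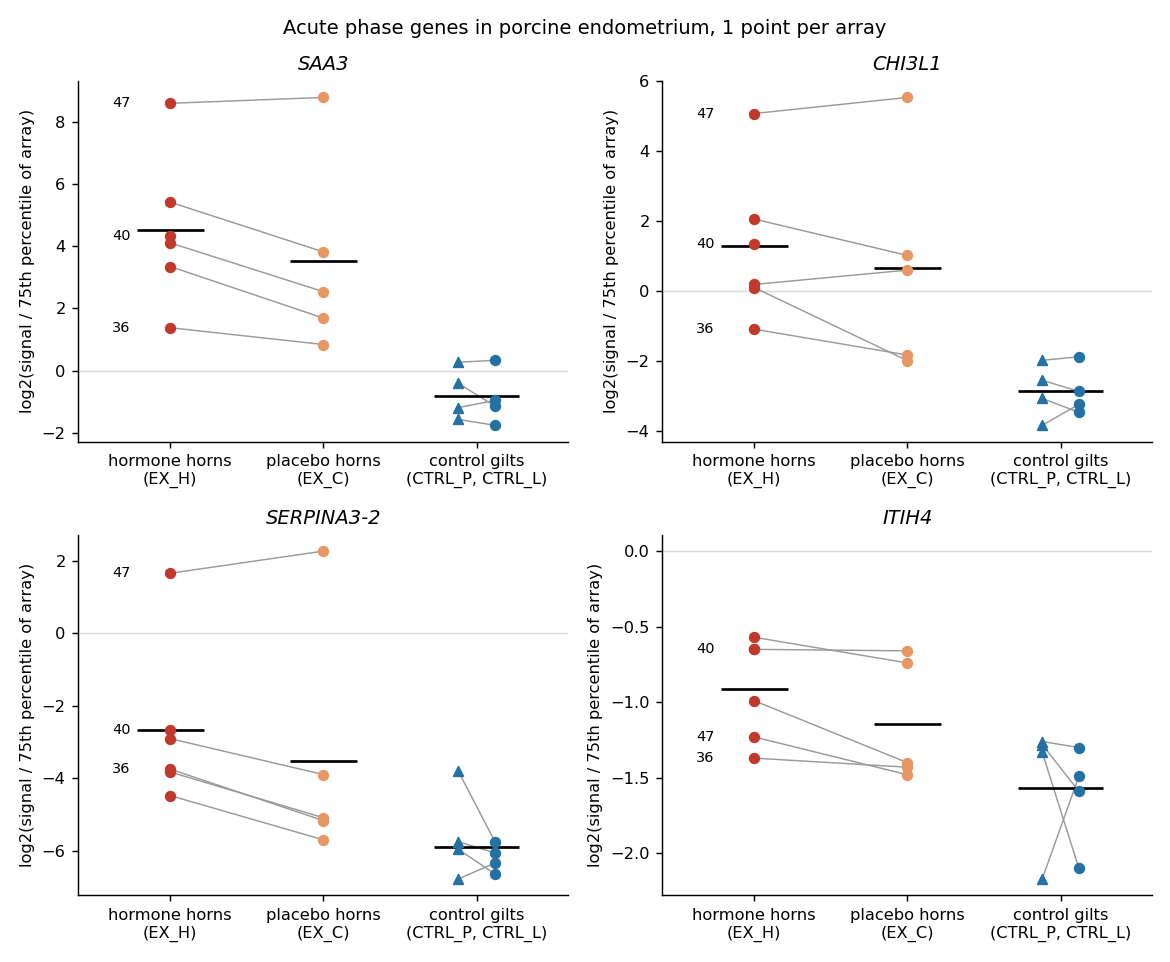
Level of the 4 genes on each of the 19 arrays, as log2 of the signal over the 75th percentile of the array, in 6 hormone horns, 5 placebo horns and 8 control horns (triangles P, circles L). Grey lines join the horns of a gilt, black bars are group means and numbers name gilts. SAA3 lay above 0.33, the highest control, in all 11 treated horns, while ITIH4 overlapped the control range of -2.17 to -1.26.

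For 3 of the genes several probes were measured, and their agreement differed between genes. For SAA3 the correlation of the other probes with the brightest was 0.996 to 1.000 over 19 arrays, and the difference of hormone horns from control gilts was 5.03 to 5.43 log2 units over the 5 probes. CHI3L1 had a second probe with a correlation of 0.995 and differences of 3.67 ± 0.89 in hormone horns and 3.37 ± 0.91 in placebo horns. The ITIH4 probes agreed less. Its second probe correlated with the first at 0.483 and gave 0.33 ± 0.21 in hormone horns and 0.02 ± 0.21 in placebo horns. Probe 3 of ITIH4 correlated at 0.824 and gave 1.26 ± 0.45 and 1.38 ± 0.47, but it was well above background on only 4 of 6 hormone horns, 5 of 5 placebo horns and 2 of 8 control horns. The differences of probe 3 are thus set against control horns mostly not well above background.

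**Figure D2:**
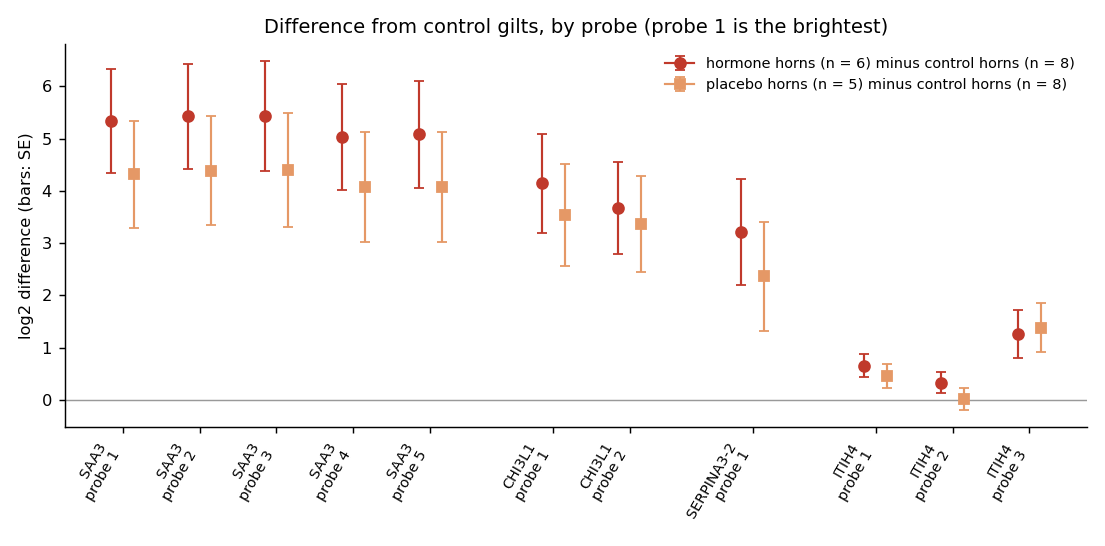
Difference from control gilts in log2 units for each of the 11 probes, with hormone horns (circles) and placebo horns (squares) and SE as bars. The 5 SAA3 probes lay between 5.03 and 5.43 for hormone horns, whereas the 3 ITIH4 probes gave 0.66, 0.33 and 1.26, the last from a probe well above background in only 2 of 8 control horns.

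The comparison of hormone with placebo horns asks whether a gene differed between horns of the same animal, 1 given PGE2 and E2 and the other vehicle. The genes were chosen as high in hormone horns, so this comparison leans towards a rise. SAA3 was higher in the hormone horn by 0.54 log2 units in gilt 36, 1.58 in gilt 38, 1.60 in gilt 41 and 1.66 in gilt 44, and differed by -0.19 in gilt 47. It was thus higher in 4 of 5 gilts, and 23.2% of all probes were higher in at least 4 of 5. The fitted difference was 1.02 ± 0.70 log2 units, with a 95% confidence interval of -0.44 to 2.48, and did not pass (limma, adjusted p = 0.609). Without gilt 47 it was 1.43 ± 0.46 (limma, adjusted p = 0.286). With each gilt as a fixed term it was 1.04 ± 0.26 (limma, adjusted p = 0.232).

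CHI3L1 differed between the hormone and the placebo horn by 0.74 in gilt 36, -0.41 in gilt 38, 1.03 in gilt 41, 2.09 in gilt 44 and -0.46 in gilt 47. Its fitted difference of 0.60 ± 0.67 log2 units (interval -0.79 to 2.00) did not pass (limma, adjusted p = 0.746). For SERPINA3-2 the hormone horn was higher by 1.42 in gilt 36, 0.98 in gilt 38, 1.26 in gilt 41 and 1.22 in gilt 44, and differed by -0.62 in gilt 47. Its fitted difference was 0.85 ± 0.71 (interval -0.64 to 2.35; limma, adjusted p = 0.669), and 1.34 ± 0.37 without gilt 47 (limma, adjusted p = 0.206). ITIH4 was higher in the hormone horn of 5 of 5 gilts, by 0.01 to 0.41, with a fitted difference of 0.20 ± 0.16 (interval -0.13 to 0.54; limma, adjusted p = 0.651). Of all probes, 5.2% were higher in 5 of 5 gilts.

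None of the 11 probes passed between hormone and placebo horns in limma, and 1 of them had an unadjusted p under 0.05, the second probe of ITIH4. Calls in this comparison were rare altogether, at 0.00256% of 39094 probes. The upper ends of the intervals, 2.48 for SAA3, 2.00 for CHI3L1 and 2.35 log2 units for SERPINA3-2, include large differences, so these data do not show that the horns were alike. These intervals rest on a single within-gilt correlation for every probe alike. With each gilt as a fixed term, the SE for SAA3 was smaller than in this fit.

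Control gilts give the same contrast without hormone. The P horn minus the L horn of gilts 9, 14, 28 and 46 was -0.06, 0.73, 0.19 and -0.23 log2 units for SAA3, with a fitted difference of 0.16 ± 0.79 (limma, adjusted p = 1.00). For CHI3L1 the fitted difference was 0.00 ± 0.76, for SERPINA3-2 0.62 ± 0.81 and for ITIH4 0.11 ± 0.18 (limma, adjusted p = 1.00 for each). In SERPINA3-2 a single control gilt, number 14, had a P horn 1.94 above its L horn, more than the hormone horn exceeded the placebo horn in any treated gilt. No probe on the array passed between P and L horns (0% of 39092 in limma, with 945 at an unadjusted p under 0.05).

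The horn difference of treated gilts minus that of control gilts did not pass for any of the 4 genes. It was 0.86 ± 1.06 log2 units for SAA3, 0.60 ± 1.01 for CHI3L1, 0.23 ± 1.08 for SERPINA3-2 and 0.09 ± 0.24 for ITIH4 (limma, adjusted p = 0.998 for each; 0% of 39091 probes passed and 1280 had an unadjusted p under 0.05). An exact two-sided permutation test over gilts, 5 treated against 4 control, gave p = 0.111 for SAA3, p = 0.349 for CHI3L1, p = 0.714 for SERPINA3-2 and p = 0.810 for ITIH4. These are 4 tests over 126 splits each, and the smallest p such a test can give is 0.00794.

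**Figure D3:**
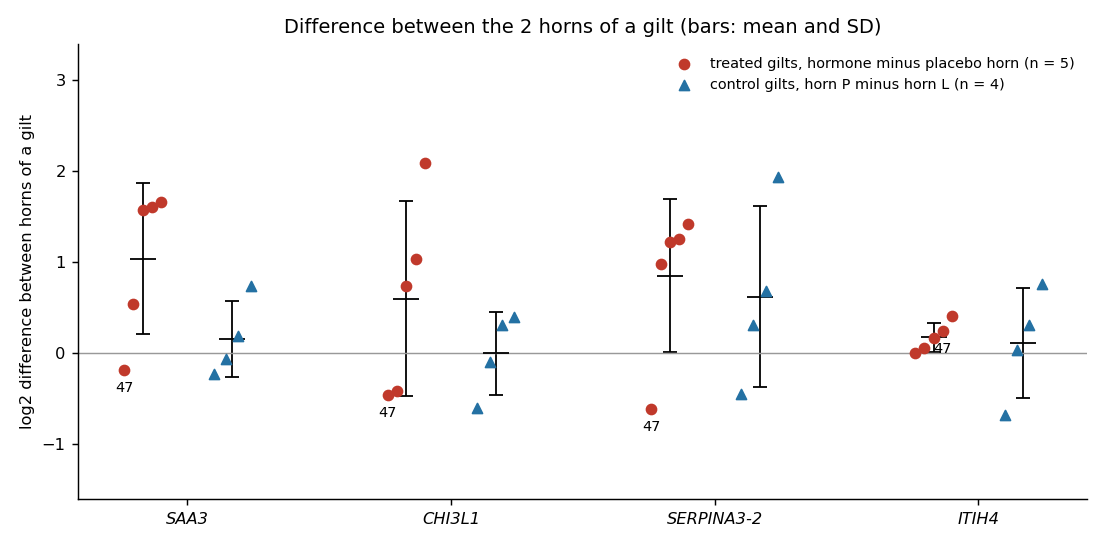
Difference between the horns of a gilt in log2 units, hormone minus placebo horn in 5 treated gilts (circles) and P minus L horn in 4 control gilts (triangles), with mean and SD as bars. For SAA3, 4 of 5 treated gilts lay between 0.54 and 1.66 and gilt 47 at -0.19, against -0.23 to 0.73 in control gilts.

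For SAA3 in treated gilts, animals differed more than horns. Averaged over the horns of an animal, SAA3 was 4.10 ± 2.59 in treated gilts (SD, n = 6) and -0.80 ± 0.82 in control gilts (n = 4), while the horn differences of treated gilts had an SD of 0.83. In control gilts SERPINA3-2 had an SD of 0.79 between gilts and of 1.00 between horn differences, and ITIH4 0.25 and 0.60. A mean over horns and a difference between horns are not on a like scale, so no order is read from these control values. The treated gilts with the lowest and the highest SAA3, 36 and 47, were also the lowest and the highest in CHI3L1. SERPINA3-2 was highest in gilt 47 as well, but its lowest treated animal was gilt 44. The fit takes the arrays of a gilt as correlated at 0.536 for every probe alike.

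The arrays were scanned on 3 days that each held treated and control gilts. Within scan days 1, 2 and 3, the SAA3 difference of hormone horns from control horns was 2.07, 6.09 and 7.43 log2 units, and that of placebo horns 0.97, 5.04 and 6.74. CHI3L1 gave 3.05, 4.69 and 4.57 in hormone horns, and SERPINA3-2 gave 2.45, 2.28 and 5.27. ITIH4 gave 0.65, 0.97 and 0.34. All of these kept their direction on each day. Both horns of a gilt lay on 1 slide, and a single slide held a treated and a control gilt, numbers 36 and 9. On that slide the SAA3 difference was 1.08 in the hormone horn and 0.54 in the placebo horn, smaller than within any scan day, and a fit with slide as a term, which rests on it, gave 1.33 and 0.29. For all other slides, slide and animal cannot be told apart.

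The sums of neutrophil, macrophage, T and natural killer cell and B cell markers were highest in gilt 47, as were SAA3 and CHI3L1. The part of leukocytes in the differences of the 4 genes was not tested. In whole tissue, more cells of a type and more RNA per cell cannot be told apart. The neutrophil list, of which 5 of 9 markers were measured (S100A8, S100A9, S100A12, TREM1 and PGLYRP1), summed to 1.15 to 68.2 times the 75th percentile in hormone horns, 0.21 to 79.9 in placebo horns and 0.38 to 0.82 in control horns. The markers did not all move one way: PGLYRP1 averaged -3.53 in hormone horns, -3.44 in placebo horns and -2.14 in control horns, whereas S100A8 averaged 2.47 in hormone horns, 0.33 in placebo horns and -3.95 in control horns. The macrophage and dendritic cell list, with 7 of 10 measured, summed to 11.9 to 166 in hormone horns, 11.6 to 194 in placebo horns and 6.06 to 12.4 in control horns. The top of both lists was gilt 47, at 68.2 and 79.9 for neutrophils and at 166 and 194 for macrophages in its hormone and placebo horn. Without that gilt, the treated horns had neutrophil sums of 0.21 to 62.1 and macrophage sums of 11.6 to 34.6.

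T and natural killer cell markers (9 of 9 measured) summed to 17.03 and 16.1 in the hormone and placebo horn of gilt 47, to 3.82 to 6.37 in the other treated horns and to 5.80 to 8.44 in control horns. The brightest, GZMB, averaged 1.52 in hormone, 1.83 in placebo and 2.45 in control horns, while every other marker of the list averaged higher in treated horns. The median of the 9 markers lay at -0.19 to 0.84 log2 units from the control mean in treated horns other than gilt 47. In control horns it lay at -0.58 to 0.27. B and plasma cell markers (3 of 5) summed to 0.76 and 0.90 in the hormone and placebo horn of gilt 47, against 0.09 to 0.21 in the other treated horns and 0.10 to 0.14 in control horns. The placebo horn of gilt 44 had SAA3 at 1.69 with a neutrophil sum of 0.21, below every control horn, and a macrophage sum of 15.5, above every control horn. The median of its 5 neutrophil markers lay at -0.76 log2 units from the control mean, within the -0.90 to 0.57 of control horns. Gilt 36, with SAA3 at 1.38 and 0.84 in its hormone and placebo horn, had neutrophil sums of 2.51 and 1.71, above every control horn, and macrophage sums of 11.9 and 11.6, within the control range. In gilt 47, where both lists were highest, ITIH4 was at -1.23 and -1.48, below the mean of its group in each horn.

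**Figure D4:**
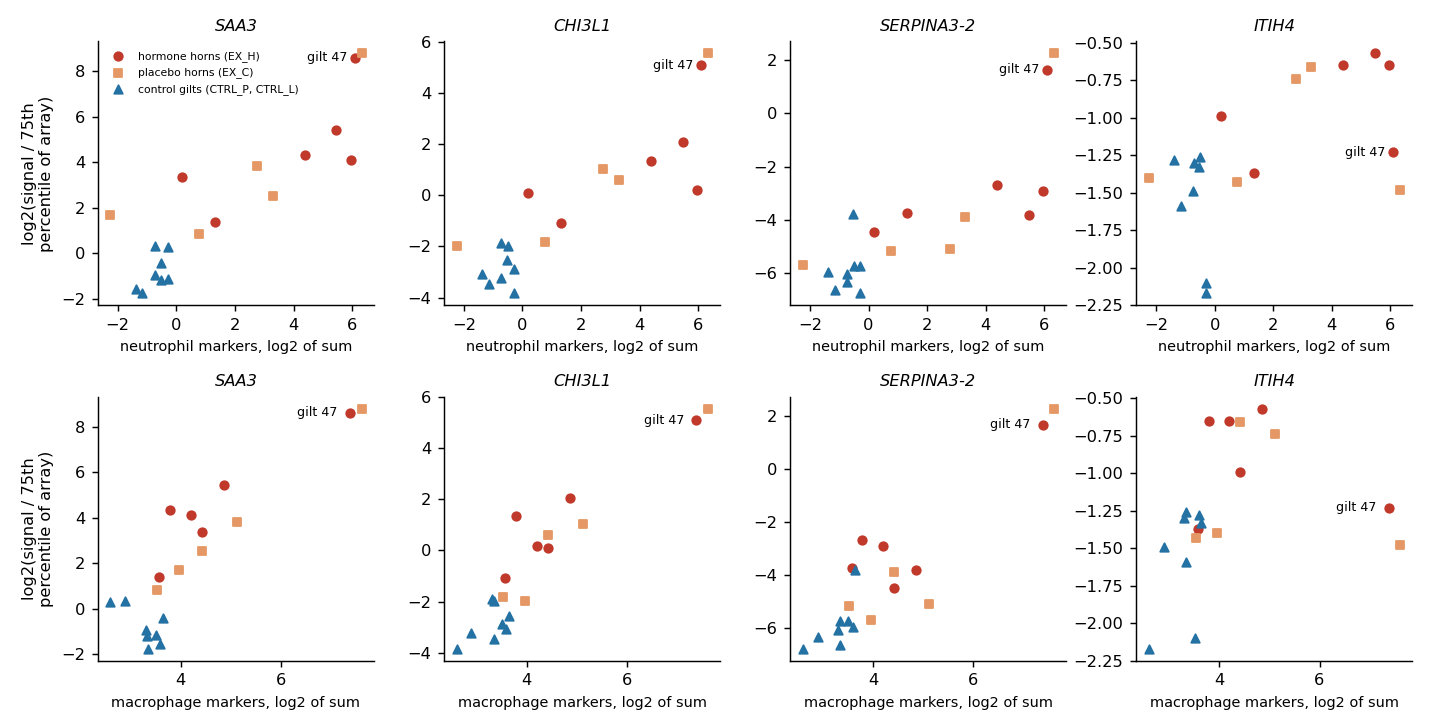
Level of the 4 genes on each array (log2 of signal over the 75th percentile) against log2 of the summed level of 5 neutrophil markers (top row) or 7 macrophage and dendritic cell markers (bottom row), for hormone horns (circles), placebo horns (squares) and control horns (triangles). Both horns of gilt 47 lie at the upper right for SAA3, CHI3L1 and SERPINA3-2, whereas their ITIH4 levels of -1.23 and -1.48 fall near the top of the control range or within it.

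Hepatocyte markers overlapped between the groups. Of 8 listed, 6 were measured, and they summed to 14.5 to 28.05 in hormone horns, 13.8 to 26.5 in placebo horns and 13.7 to 20.4 in control horns. Albumin (ALB) averaged -3.00 in hormone horns, -3.05 in placebo horns and -2.64 in control horns.

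Other acute phase proteins were tested in the same fit to see how many differed from control gilts. The list holds proteins that rise in the acute phase and proteins that fall in it, such as ALB and RBP4. Its counts and median thus mix both kinds. Of 36 listed, 23 were measured, and in hormone horns 5 were higher than in control gilts, 0 were lower and 18 did not pass (limma, adjusted p under 0.05). Over all probes 6.85% passed as higher and 4.89% as lower. The median difference of the list was 0.08 log2 units, beside 0.01 over all probes and 0.17 over all named genes. CFB, complement factor B of the alternative pathway, rose by 2.50 ± 0.64 (limma, adjusted p = 0.0192). Over 22 alternative settings, each gilt left out included, its difference was 0.22 to 2.91 log2 units and did not pass in 5. LCN2, the iron-scavenging protein lipocalin 2, rose by 2.39 ± 0.70 (limma, adjusted p = 0.0352). Both were highest in gilt 47, at 3.35 and 2.03 in its hormone horn, where the leukocyte marker sums were also highest, and the part of those cells was not tested. RBP4, the plasma carrier of retinol, rose by 1.13 ± 0.28 (limma, adjusted p = 0.0167) and was high in every group, at 8.41 ± 0.35 in hormone horns and 7.27 ± 0.48 in control horns (SD, n = 6 and n = 8).

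CD14, a co-receptor for bacterial lipopolysaccharide that also stands in the macrophage list, rose by 1.43 ± 0.41 (limma, adjusted p = 0.0320). APCS, serum amyloid P, was not well above background in any control horn and was so in 4 of 6 hormone horns. It entered the test only through treated horns, so its call, 1 of the 5, carries no weight. The measured means were -5.35 in hormone horns and -7.32 in control horns. Each control array was also taken at the higher of its own value and its dimmest signal well above background. The mean of hormone horns was then 2.81-fold higher. Hormone horns not well above background kept their measured values, so this fold is not a lower bound. The hormone horns of gilts 36 and 41, at -6.89 and -6.82, lay within the control range of -8.54 to -6.35. Without control gilt 14, 0 of the 23 passed, and without control gilt 9 or 28, 1 did (limma). Without gilt 44 or control gilt 46, 2 passed, and without gilt 40, 3.

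HP, LBP, CRP, SERPINA1 and ITIH2 did not pass. Haptoglobin (HP), which binds free haemoglobin, differed by -0.70 ± 0.76 (limma, adjusted p = 0.598) and had 0 of 6 hormone horns above the highest control. LBP, which hands lipopolysaccharide to CD14, differed by 0.09 ± 0.20 (limma, adjusted p = 0.809). CRP, C-reactive protein, differed by -0.26 ± 0.12 (limma, adjusted p = 0.194). SERPINA1, the inhibitor of neutrophil elastase, differed by 1.01 ± 0.42 (limma, adjusted p = 0.127). ITIH2, another heavy chain of the family of ITIH4, differed by 0.61 ± 0.35 (limma, adjusted p = 0.275).

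In placebo horns, none of the 23 passed against control gilts in limma and 7 had an unadjusted p under 0.05, where 2.56% of all probes passed as higher and 1.93% as lower. CFB differed by 1.76 ± 0.66 (limma, adjusted p = 0.119), LCN2 by 1.79 ± 0.73 (limma, adjusted p = 0.146) and RBP4 by 1.02 ± 0.29 (limma, adjusted p = 0.0511). The placebo horn of gilt 47 had the highest CFB and LCN2 of its group, at 3.69 and 2.28. Between hormone and placebo horns, 0 of the 23 passed in limma and 2 had an unadjusted p under 0.05, SERPINA1 with 1.01 ± 0.30 (limma, adjusted p = 0.290) and APCS, which was well above background in 2 of 5 placebo horns, with 1.00 ± 0.41 (limma, adjusted p = 0.450). Without gilt 36, 3 passed in placebo horns.

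Among regulators of the acute phase, 18 of 29 listed were measured, and in hormone horns 3 were higher than in control gilts, 1 was lower and 14 did not pass, beside 6.85% higher and 4.89% lower over all probes. The single lower gene is near the share of all probes. CEBPB, the C/EBP factor that binds acute phase promoters, rose by 1.79 ± 0.30 in hormone horns (limma, adjusted p = 0.00242) and by 1.92 ± 0.30 in placebo horns (limma, adjusted p = 0.00917). Every treated horn lay above every control horn, at -2.26 to -1.28 in hormone horns, -2.15 to -0.82 in placebo horns and -4.46 to -2.70 in control horns. Over all probes, 3.95% had every hormone horn and 3.05% every placebo horn above every control horn. RELA, a subunit of NF-kappa-B, rose by 0.61 ± 0.15 in hormone horns (limma, adjusted p = 0.0144) and by 0.69 ± 0.15 in placebo horns (limma, adjusted p = 0.0254). NFKBIA, an inhibitor of NF-kappa-B that NF-kappa-B itself induces, rose by 1.13 ± 0.35 in hormone horns (limma, adjusted p = 0.0416). NR3C1, the glucocorticoid receptor, fell by 0.42 on the log2 scale in hormone horns (limma, adjusted p = 0.0322). The count of 4 in hormone horns was 1 without control gilt 14 or 28 and 2 without control gilt 9. The count of 2 in placebo horns was 0 without control gilt 14 or 28, 1 without gilt 38, 47 or control gilt 9, and 4 without gilt 36.

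The cytokines upstream did not pass and varied between animals. IL1B differed by 1.89 ± 1.12 in hormone horns (limma, adjusted p = 0.293) and by 2.92 ± 1.15 in placebo horns (limma, adjusted p = 0.137), with its highest levels in gilt 47, at 3.15 and 3.69 in the hormone and placebo horn. IL6 differed by 1.03 ± 0.79 in hormone horns (limma, adjusted p = 0.429), TNF by 0.08 ± 0.15 (limma, adjusted p = 0.768) and IL1A by -1.37 ± 0.44 (limma, adjusted p = 0.0507). STAT3, the factor activated by interleukin 6, differed by 0.32 ± 0.16 (limma, adjusted p = 0.205), and SOCS3, its feedback inhibitor, by 0.01 ± 0.36 (limma, adjusted p = 0.988). The median of the list was 0.38 in hormone horns and 0.46 in placebo horns, beside 0.01 and -0.06 over all probes and 0.17 and 0.08 over all named genes. ORM1 and CEBPD had no named probe among those tested.

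**Figure D5:**
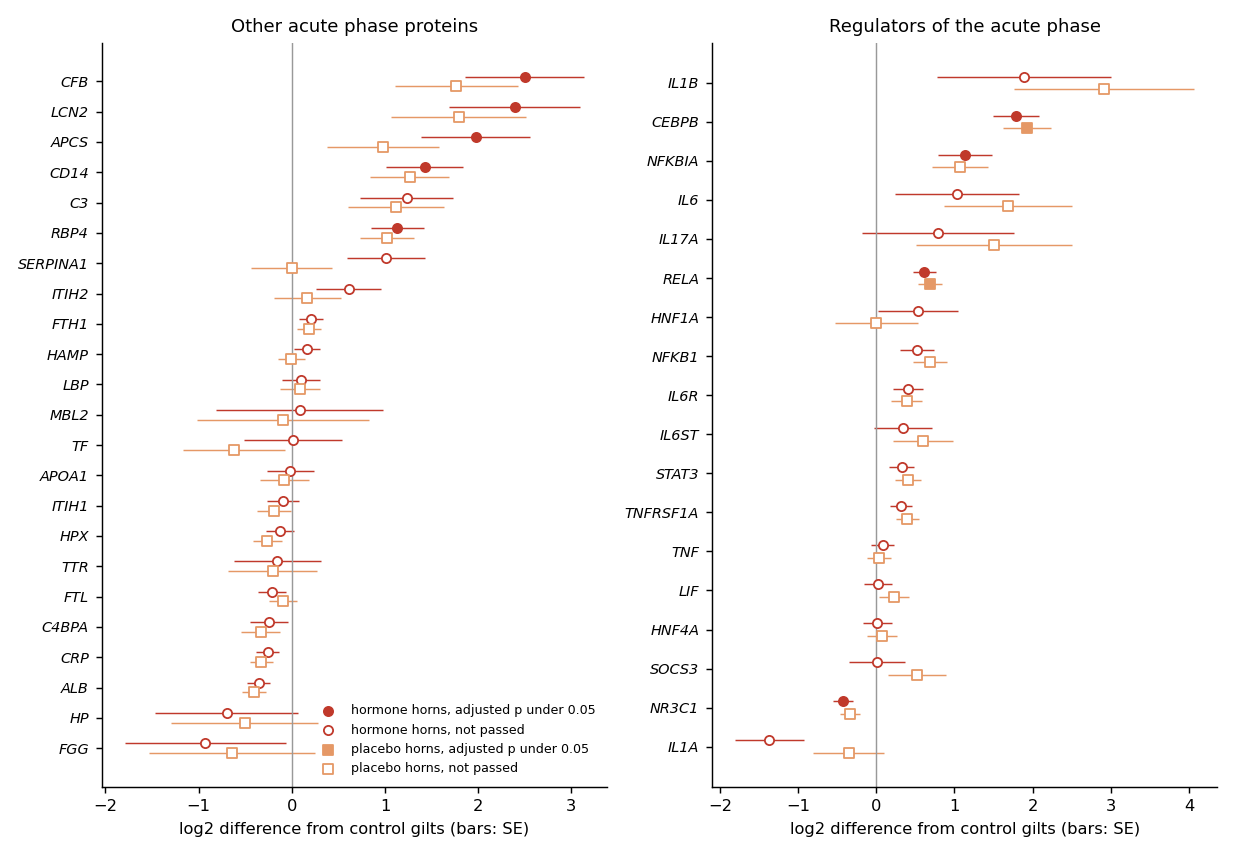
Difference from control gilts in log2 units, with SE as bars, for 23 other acute phase proteins (left) and 18 regulators (right), in hormone horns (circles) and placebo horns (squares), with filled symbols where the adjusted p was under 0.05 in limma. CFB, LCN2, APCS, CD14 and RBP4 are filled for hormone horns on the left, and CEBPB and RELA for both horns on the right, while HP, LBP and CRP are open.

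Receptors and partners of the proteins were measured for 7 of 16 listed genes, of which 1 was higher, 0 were lower and 6 did not pass in hormone horns against control gilts, beside 6.85% higher over all probes. The gene was TLR4, the lipopolysaccharide receptor, which SAA3 is reported to activate in mice, at 1.03 ± 0.32 (limma, adjusted p = 0.0462). TLR2 differed by 1.09 ± 0.43 (limma, adjusted p = 0.107). IL13RA2, a receptor for CHI3L1, differed by -0.47 ± 0.26 (limma, adjusted p = 0.255), AGER by 0.32 ± 0.27 (limma, adjusted p = 0.475) and SCARB1, a lipoprotein receptor, by 0.27 ± 0.17 (limma, adjusted p = 0.333). The list had a median of 0.32, beside 0.17 over all named genes. TLR4 no longer passed when any gilt other than 36 or 41 was left out (limma, adjusted p = 0.066 to 0.135).

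The hyaluronan and inter-alpha-trypsin inhibitor system, in which heavy chains such as ITIH2 are moved onto hyaluronan, had 9 of 15 genes measured, with 3 higher, 0 lower and 6 that did not pass in hormone horns, beside 6.85% higher over all probes. TNFAIP6, the enzyme that transfers the heavy chains, rose by 2.71 ± 0.79 (limma, adjusted p = 0.0350). HYAL2, a hyaluronidase at the cell surface, rose by 0.95 ± 0.20 in hormone horns (limma, adjusted p = 0.00701) and by 1.00 ± 0.20 in placebo horns (limma, adjusted p = 0.0213). Its treated horns did not overlap the control horns, as in 3.95% of all probes for hormone horns above controls and 3.05% for placebo horns. VCAN, a proteoglycan that binds hyaluronan, rose by 0.99 ± 0.28 in hormone horns (limma, adjusted p = 0.0287), and HYAL1 differed by 0.24 ± 0.16 (limma, adjusted p = 0.348). The median of the list was 0.24, beside 0.17 over all named genes. The count in hormone horns was 1 without control gilt 9, 14 or 28 and 2 without gilt 38 or control gilt 46. HYAL2 in placebo horns no longer passed without gilt 38 or control gilt 9, 14 or 28, and 2 genes passed there without gilt 36, 40 or 44.

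Of 23 other serpins listed, 10 were measured, with 3 higher, 0 lower and 7 that did not pass in hormone horns, beside 6.85% higher over all probes. Their median was 0.65, beside 0.17 over all named genes. SERPINF1, an inhibitor of blood vessel growth, rose by 0.84 ± 0.22 (limma, adjusted p = 0.0208). SERPING1, the C1 inhibitor of complement, rose by 0.97 ± 0.28 (limma, adjusted p = 0.0344). SERPINH1, a chaperone of collagen, rose by 0.62 ± 0.18 (limma, adjusted p = 0.0313). SERPINB9, an inhibitor of granzyme B, differed by 0.67 ± 0.22 (limma, adjusted p = 0.0537). No serpin passed in limma without control gilt 9, 14 or 28, and 2 without gilt 36, 44 or control gilt 46, while 5 passed without gilt 47. In the chitinase family only OVGP1, the oviductal glycoprotein, was measured, at 0.24 ± 0.26 (limma, adjusted p = 0.590).

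Across these lists 65 genes were measured, of which 16 passed in hormone horns (APCS among them) and 3 in placebo horns against control gilts. The shares over all probes were 11.7% and 4.49%. They are not shares of named genes, whose median difference in hormone horns was 0.17, beside 0.01 over all probes. The placebo share is near that of all probes. The difference had the same sign on all 3 scan days for all 16 and all 3. Only CEBPB and HYAL2 still passed in hormone horns whichever gilt was left out, and 4 of the 16 passed when the horns of each control gilt were averaged to 1 value. Between hormone and placebo horns 0 of the 65 passed in limma, with 6 at an unadjusted p under 0.05.

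The genes whose pattern was most like each of the 4 were found by the correlation of deviations from group means over the 19 arrays. Both horns of a gilt and the slide are shared among these points, so the values describe the arrays only. SAA3 was most like CFB (r = 0.954), followed by ADM5 (0.926), the interferon-induced GTPase GBP2 (0.919), the B cell survival factor TNFSF13B (0.914) and the granulocyte growth factor CSF3 (0.911). Without gilt 47, over 17 arrays, CFB was still the closest to SAA3 among all named genes, with r = 0.839, while the other 4 had r = 0.596 to 0.713. CHI3L1 was most like GLRX, a glutaredoxin (0.971, and 0.892 without gilt 47), IL4R (0.944), CD80 (0.934), ALOX5AP (0.934) and the macrophage scavenger receptor CD163 (0.934).

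SERPINA3-2 was most like RAP2B (0.955), CTLA4 (0.929), the complement component C1QC (0.925), MUC20 (0.919) and the milk protein CSN2 (0.914). Without gilt 47 these 5 had r = 0.441 to 0.617, so most of the likeness came with that animal. ITIH4 was most like DHX32 (0.833), the copper transporter SLC31A1 (0.808), SOCS4 (0.800), FHL5 (0.789) and IL18R1 (0.759), and these had r = 0.733 to 0.817 without gilt 47. Among the 4 genes, SAA3 and CHI3L1 had r = 0.908, and 0.642 without gilt 47. SAA3 and SERPINA3-2 had r = 0.834, and 0.138 without gilt 47. ITIH4 and CHI3L1 had r = 0.08, and 0.793 without gilt 47.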

How the data were processed

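Endometrial RNA of 19 uterine horns was hybridised to one-colour Agilent arrays after TRIzol extraction, amplification of 0.5 µg and Cy3 labelling, per the labels' protocols. The deposited scanner files hold an intensity per spot on a linear scale, background-subtracted and detrended within each array by Agilent Feature Extraction 10.7.3.1, per the file headers. Version 9.1 stands in the submitters' processing notes. The authors' deposited table holds log2 values of these arrays that correlated with the log2 scanner values at 0.996 to 0.999. Its array medians were 7.72 to 7.83. How these values were normalized and centred is not stated in the labels, and they were used only as an alternative setting.

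Spots of a probe were averaged without control spots and without 1141 flagged outlier values among tested probes, and log2 of the array's 75th percentile was subtracted. Tested were 39095 probes called well above background by the scanner software on 4 arrays or more. A model of 4 groups, in which arrays of a gilt were correlated (duplicateCorrelation), was fitted with limma 3.58.1 (lmFit, eBayes with trend) and statmod 1.5.0 in R 4.3.3. P-values were two-sided and Benjamini-Hochberg adjusted over all probes at 0.05. Control gilts entered as the mean of CTRL_P and CTRL_L. The numbers in the labels name the gilt and so pair the horns of an animal. Deviations from group means correlated between horns at 0.336 to 0.795 in treated and 0.403 to 0.628 in control gilts. P-values rest on the spread between these arrays and gilts, under a single within-gilt correlation for all probes. Confidence intervals are 95%. The fit was tested on simulated data.

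Probe accessions were matched without version to a RefSeq gene table of the pig, which gave 1 gene to 6876 of 43603 probes and a named symbol to 6768. The brightest probe stood for each of the 3010 genes with a tested probe. Alternatives covered normalization, background, dim probes, blocks, slide, scan day, horn mark, probe and each gilt left out.

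The members, the lists and the naming rule were chosen with earlier results of these data known. Named were all probes of the members, 13 acute phase genes and regulators whatever their values (those not measured by name only), in each list up to 4 genes with the smallest p in hormone horns against control gilts and up to 2 against placebo horns, and the 5 genes most like each member. Cell markers and ALB came from marker lists. The correlations without gilt 47 and the values within scan days were added after seeing the data.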

Additional observations from a re-analysis of the deposited data

Results flagged for a closer look

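The level of SERPINA3-2 in gilt 47 was 1.65 in the hormone horn and 2.26 in the placebo horn, each far above the other horns of its group, which lay at -4.48 to -2.68 and -5.70 to -3.90. The same animal had the highest neutrophil and macrophage marker sums. The level of ITIH4 in the P horn of control gilt 9 was -2.17, far below the other P horns of control gilts, at -1.33 to -1.26. That horn also had the highest smooth muscle marker sum of the control horns, 211, and the lowest epithelium sum, 78.8. The part of these was not tested. Of 16 combinations of gene and group examined for a value far from the others, the 3 named here for SERPINA3-2 and ITIH4 met the limit. Chance passes it in about 1 of 20 groups.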

How the results depend on the processing

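Under every alternative run, the comparisons between hormone and placebo horns, between P and L horns and of the horn differences did not pass for any of the 4 genes. Between hormone and placebo horns the SAA3 difference was 1.00 with no replicate block, 1.04 with the gilt as a fixed replicate block and 0.86 with the horn mark as a term, and for CHI3L1 the pairing gave 0.61 without the block and 0.60 with the fixed one. The block changed no call of the 4 genes. With slide as a term, SAA3 differed from control gilts by 1.33 in hormone and 0.29 in placebo horns. Probe 3 of ITIH4 gave 1.26 and 1.38 for these, -0.12 between hormone and placebo horns and -0.29 between P and L horns, and probe 2 gave 0.0196 in placebo horns. CHI3L1 differed by -0.0117 between P and L horns after normexp on median signals. That setting was chosen after seeing the data, because the planned one on mean signals was not run for want of that column.

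Leaving out each gilt moved the P minus L difference between -0.0322 and 0.29 for SAA3, -0.13 and 0.20 for CHI3L1 and -0.11 and 0.37 for ITIH4, and the excess horn difference of treated gilts between -0.13 and 0.71 for SERPINA3-2 and -0.17 and 0.31 for ITIH4.

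Of the acute phase proteins, hormone horns against control gilts gave 1 call with control horns averaged per gilt, 2 with only the groups compared, 2 with slide as a term and 0 to 6 with a gilt left out. Placebo horns gave 1 with the authors' values, normexp, quantile normalization, scan day or slide as a term, 3 with no replicate block and 0 to 3 with a gilt left out. Regulators gave 2 in hormone horns with control horns averaged or without the hormone horn of gilt 36, and 1 to 4 with a gilt left out. In placebo horns they gave 1 with control horns averaged, 0 with the horn mark or only the groups compared, and 0 to 4 with a gilt left out. Receptors gave 0 in hormone horns with the authors' values, control horns averaged, only the groups compared or quantile normalization. In placebo horns they gave 1 with no replicate block, normexp or slide, and 0 to 1 in either horn with a gilt left out. The hyaluronan system gave 1 in hormone horns with control horns averaged or without the hormone horn of gilt 36, and 1 to 3 with a gilt left out. In placebo horns it gave 0 with control horns averaged, the horn mark or only the groups compared, 2 with no replicate block, quantile normalization or scan day, 3 with slide, and 0 to 2 with a gilt left out. The chitinase family gave 1 in hormone horns with slide. Serpins gave 0 in hormone horns with control horns averaged and 0 to 5 with a gilt left out, and in placebo horns 1 with slide and 0 to 1 with a gilt left out. The causes were not tested.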
